A study of Rattus norvegicus with 12 samples.

Results

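The genes described here make, inactivate or restrain eicosanoids, the signalling lipids derived from arachidonic acid. They are Ptgs1, Ptgs2, Ptges, Hpgd, Alox5, Alox12, Alox15, Pla2g4a and Anxa1. They were found as the probe sets that the platform annotation gives to 1 of these 9 symbols and to no other gene, which yielded 12 probe sets of the 31042 tested and 9 genes of 14217. Ptgs1, Ptges and Hpgd had 2 probe sets each and the other 6 genes had 1. RNA came from rat esophagus with its submucosal and muscle layers removed, hybridised to 1 expression array per sample, in 4 groups of 3 samples. Controls were given only the solvent, a mixture of dimethyl sulfoxide and water, while the other 3 groups were given N-nitrosomethylbenzylamine (NMBA), a carcinogen that produces squamous tumors in this organ. Both were injected under the skin in 0.2 ml, 3 times weekly for 5 weeks after 2 weeks of acclimation, with NMBA at 0.3 mg per kg. All rats were housed 3 to a cage. The NMBA groups were sampled at week 6 (labelled early in tumor development), week 15 (middle) and week 29 (late). The sampling week of the controls and the strain and age of the animals are not stated in the labels. Nor do the labels tie each array to its own rat, and the p-values therefore cover only the spread among these arrays.

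Cytosolic phospholipase A2, the product of Pla2g4a, frees arachidonic acid from membranes, and annexin A1, the product of Anxa1, is a glucocorticoid-induced protein known to inhibit that release. The cyclooxygenases encoded by Ptgs1 (constitutive in most tissues) and Ptgs2 (induced by cytokines and growth factors) turn arachidonic acid into the precursor from which Ptges makes prostaglandin E2, which Hpgd inactivates. The lipoxygenases encoded by Alox5, Alox12 and Alox15 lead instead to leukotrienes and hydroxy fatty acids. In squamous epithelium of the skin and esophagus the cyclooxygenase branch is known for its part in inflammation and tumor growth.

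Anxa1 was called lower than in controls at weeks 6 and 29, Ptgs1 and Ptges were called lower at week 29 in 1 of 2 probe sets each, and Alox12 was called higher at week 15. The other Ptgs1 probe set, just above the signal floor, showed no such fall, at -0.07 with a 95% interval of -0.34 to 0.21. The Alox12 call was lost in 13 of 22 alternative settings, and the Anxa1 call in 9 of 23 at week 6 and 3 of 23 at week 29. Of 23 settings the Ptges call was lost in 8 and its sign turned in 1, and the Ptgs1 call was lost in 3. The larger contrast lay between NMBA weeks, where 6 of the 9 genes were higher at week 15 than at week 6, and the same 6 were lower at week 29 than at week 15 in at least 1 probe set. Of all probe sets, 20.3% were called higher in the earlier contrast and 18.3% lower in the later one. With a muscle or squamous marker score as a covariate, 0 of the 12 member probe sets were called in either contrast. Calls over all probe sets then went from 11723 to 385 (muscle) and 0 (squamous) in the earlier contrast. In the later one they went from 10987 to 624 and 0, so the loss is not particular to these genes. The Ptgs2 probe set lay near the signal floor on every array.

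Promoter sequences are shown for the 4 genes that differed from control in at least 1 comparison. These members also moved together between NMBA weeks, but so did Hpgd and Pla2g4a, whose windows are not shown. The sequences are the 250 bases before the start site, 5′ to 3′ on the gene's strand, from RefSeq on the GRCr8 build, where 8 of the 9 members had an entry. Capitals mark exact matches, on either strand, to TATAAA (the TATA box), GGGCGG (the GC box), TGANTCA (the AP-1 element) or TGACG (the core of the cAMP response element).
Anxa1, chr1:227303733-227303982, minus strand: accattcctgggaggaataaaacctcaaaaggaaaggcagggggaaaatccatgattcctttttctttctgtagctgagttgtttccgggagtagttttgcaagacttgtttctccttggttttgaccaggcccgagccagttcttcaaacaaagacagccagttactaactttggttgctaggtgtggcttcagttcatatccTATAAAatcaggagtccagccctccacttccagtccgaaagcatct
Ptgs1, chr3:39981169-39981418, plus strand: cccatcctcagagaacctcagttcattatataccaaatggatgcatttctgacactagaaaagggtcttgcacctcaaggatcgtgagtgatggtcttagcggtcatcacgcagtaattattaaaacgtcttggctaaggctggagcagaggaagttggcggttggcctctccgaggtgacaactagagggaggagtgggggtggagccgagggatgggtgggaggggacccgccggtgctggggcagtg
Ptges, chr3:34586988-34587237, minus strand: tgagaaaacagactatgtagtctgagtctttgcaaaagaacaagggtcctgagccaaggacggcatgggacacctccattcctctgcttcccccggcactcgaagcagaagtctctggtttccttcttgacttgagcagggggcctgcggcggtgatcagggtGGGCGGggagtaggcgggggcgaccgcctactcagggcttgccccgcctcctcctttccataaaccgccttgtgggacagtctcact
Alox12, chr10:55469200-55469449, minus strand: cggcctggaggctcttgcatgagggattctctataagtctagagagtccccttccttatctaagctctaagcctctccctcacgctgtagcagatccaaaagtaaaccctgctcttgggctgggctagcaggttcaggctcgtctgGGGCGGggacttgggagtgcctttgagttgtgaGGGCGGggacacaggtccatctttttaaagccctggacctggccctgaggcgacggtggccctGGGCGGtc
The Anxa1 window holds 1 TATA box that begins 46 bases before the start site, the Ptges window 1 GC box and the Alox12 window 3 GC boxes, while the Ptgs1 window holds none of the 4 motifs. Of 33465 RefSeq promoter windows of this length, 12.9% hold TATAAA, 30.5% GGGCGG, 6.3% TGANTCA and 18.2% TGACG. No motif was shared by all 4 windows, and a match is a description of letters, not of a bound factor. In the same assembly Pla2g4a and Ptgs2 are neighbouring genes on chromosome 13.

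The values are log2 probe set signals, made by the authors with Affymetrix Expression Console. A difference of 1 on this scale is a 2-fold difference in signal. Detection calls were not used here, so the floor was set from 29 measured genes restricted to other organs, such as albumin and insulin, and a member was called near it when its highest group mean was below their 75th percentile of 5.61. Because probe sets differ in brightness for equal RNA, this is a guide and not a detection limit. Ptgs2 and Alox15 fell below it, with mean signals of 3.07 and 5.43 at the percentiles 1.7 and 33.2 of all probe sets. The dimmer Ptgs1 probe set and Alox5 lay just above it, at 5.91 and 6.08. Anxa1 had a mean of 12.05, at percentile 99.

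**Figure D1:**
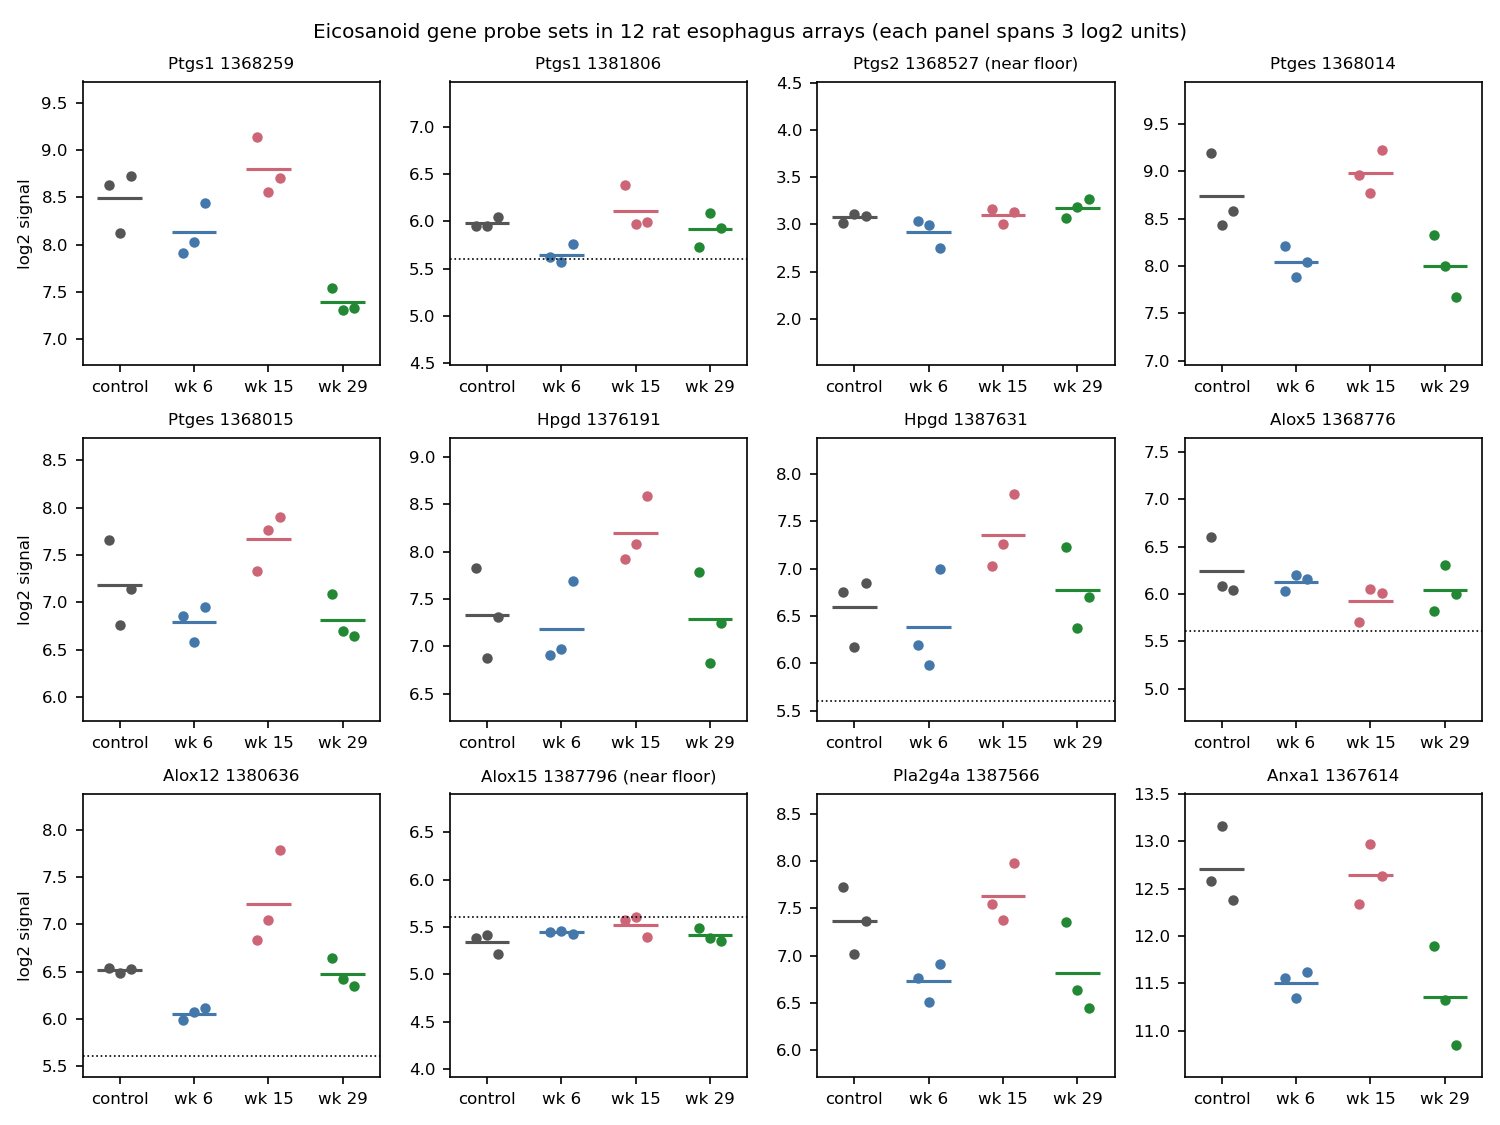
Log2 signal of the 12 member probe sets on each of the 12 arrays (points), by group, with the mean of 3 arrays as a line. The dotted line is the floor guide at 5.61, drawn where it falls inside a panel, and each panel spans the same range. Anxa1 is low at weeks 6 and 29, Alox12 is high at week 15, and Ptgs2 stays between 2.75 and 3.27.

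Marker genes of the main tissues differed between the groups. A squamous epithelium score, the mean log2 signal of 14 measured marker genes of 18 listed, averaged 11.24 ± 0.13 (SD, n = 3) in controls and 10.53 ± 0.14 at week 6. It averaged 11.66 ± 0.26 at week 15 and 10.28 ± 0.35 at week 29. Skeletal muscle genes were bright although the muscle layers had been stripped. Their score, over 26 genes, ran the other way, at 12.43 ± 0.23 for the controls, then 12.89 ± 0.03, 11.37 ± 0.80 and 12.78 ± 0.10 for weeks 6, 15 and 29, and week 15 replicate 3 was lowest at 10.51. The gap in log2 signal between the 3' and 5' control probe sets of GAPDH, which widens as RNA degrades, averaged 0.40 for the controls, then 0.11, 0.40 and 0.17 for weeks 6, 15 and 29. Of the other cells that could carry these genes, 6 of 7 mast cell, 5 of 5 neutrophil and 4 of 4 eosinophil markers had a mean over the 12 arrays below the floor guide. The neutrophil score was nonetheless 4.86 to 5.78 at week 15 against 4.16 to 4.31 in controls, with 2 of its 5 genes called higher. The score averaged 4.23 in controls and 5.26 at week 15, while the median change of its 5 genes was 0.40, so these genes did not change alike. The neutrophil list held Mpo, S100a8, S100a9, Csf3r, Cxcr2 and Mmp8, and S100a8 and S100a9 are also made by epithelium. Across the array, 1.7% of probe sets were called higher at week 15. Whether the number of neutrophils differed was not tested. Smooth muscle genes, 7 of 7 measured, had a mean score of 10.96 for the controls, then 10.91, 10.52 and 10.55 for weeks 6, 15 and 29, and 2 of them were called lower at week 15 and 3 lower and 1 higher at week 29. Macrophage scores overlapped between controls (7.02 to 7.89) and each NMBA group, and 0 of 8 macrophage genes were called against control by limma. In whole tissue, fewer cells of a type and less RNA per cell cannot be told apart. The part of these cell types in the member changes was not tested beyond the fits with the muscle score, squamous score or GAPDH gap as a covariate.

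**Figure D2:**
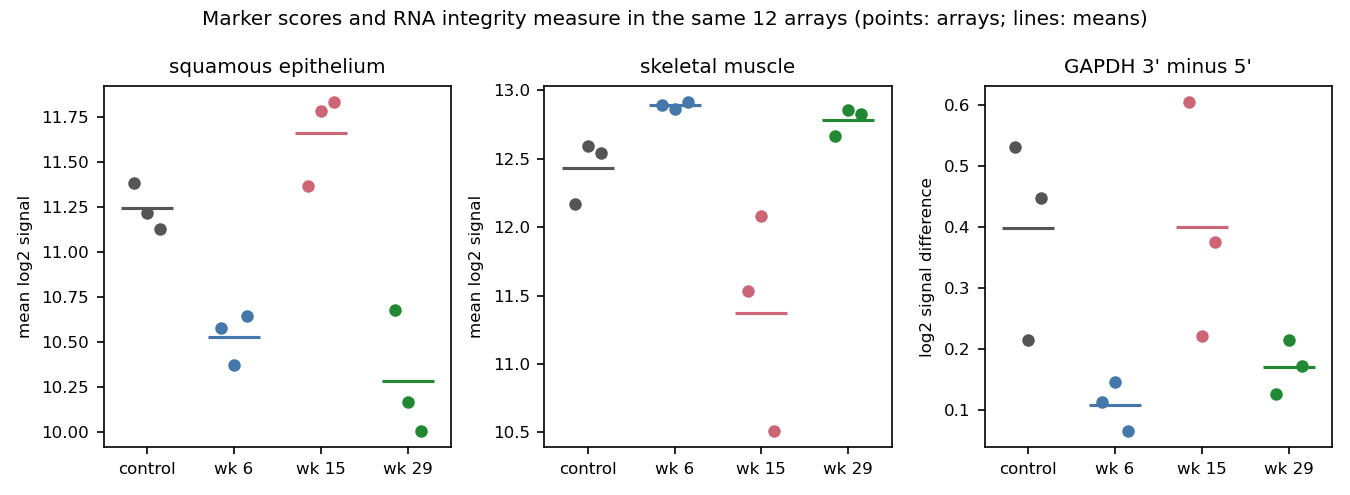
Mean log2 signal of squamous epithelium and skeletal muscle marker genes, and the GAPDH 3' minus 5' signal difference (log2), on each of the 12 arrays, with group means as lines. The squamous score is below every control in the week 6 and week 29 arrays, and the muscle score is below every control in the week 15 arrays.

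The first question was which of these genes differed between the esophagus of control rats and of rats at each NMBA week. Differences were tested with limma's moderated test in 1 fit of all 12 arrays, with Benjamini-Hochberg adjustment over all 31042 probe sets, and calls were made at an adjusted p under 0.05. At week 6, 1 of the 12 member probe sets was called, lower, where 7.54% of all probe sets were called and 2.44% were called lower. At week 15, 1 was called, higher, where 7.91% of all were called and 1.7% were called higher. At week 29, 3 were called, all lower, where 15.2% of all were called and 7.44% were called lower. The arrays of the NMBA group and the controls did not overlap for 6 members at week 6, 3 at week 15 and 3 at week 29, and for 35.9%, 26.4% and 37.7% of all probe sets. The member median was -0.35 at week 6, 0.26 at week 15 and -0.13 at week 29, and the median of all probe sets was -0.02, 0.06 and 0.04. The 3 comparisons share the same control samples. Without week 29 replicate 3, 0 members were called at week 29 by limma. In that fit 274 of all 31042 probe sets were called, against 4705 with every array, so the loss is not particular to the members.

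Anxa1 showed the largest changes from control among the members. Its signal was 12.58, 13.17 and 12.38 in the controls, 11.55, 11.34 and 11.62 at week 6, 12.34, 12.97 and 12.63 at week 15, and 11.90, 11.32 and 10.85 at week 29. Every week 6 and week 29 sample lay below every control, and the week 15 samples overlapped the controls. Anxa1 fell by 1.21 ± 0.26 at week 6 (log2, SE, n = 3 per group, limma adjusted p = 0.0255), a signal 2.31-fold lower, and fell by 1.36 ± 0.26 at week 29 (limma adjusted p = 0.0116), 2.56-fold lower. At week 15 the difference was -0.06 with a 95% interval of -0.62 to 0.50. The week 6 call was lost without control replicate 1 (adjusted p = 0.0885), control replicate 3 (0.0711) or week 6 replicate 1, 2 or 3 (0.067, 0.0792 and 0.0762). The week 29 call was lost without week 29 replicate 3, at -1.10 (adjusted p = 0.0595). The week 6 call was also lost with the muscle score (-1.27, adjusted p = 0.0633) or the GAPDH gap (-1.80, adjusted p = 0.0637) as a covariate. The squamous score was lower in the same 2 groups, and with it as a covariate the Anxa1 differences were -0.36 and -0.21 (adjusted p = 0.583 and 0.874).

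Pla2g4a, the phospholipase itself, did not pass the test against control at any week. Its signal was 7.72, 7.02 and 7.36 in the controls, 6.76, 6.50 and 6.91 at week 6, 7.55, 7.38 and 7.97 at week 15, and 7.36, 6.64 and 6.45 at week 29. The week 6 samples all lay below the lowest control, with a difference of -0.64 ± 0.24 (limma adjusted p = 0.114), and week 29 overlapped the controls at -0.55 ± 0.24 (adjusted p = 0.135). Without week 29 replicate 1 the week 29 difference was -0.82 and was called (adjusted p = 0.0225).

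Ptgs1, the constitutive cyclooxygenase, was measured by 2 probe sets that gave different answers at week 29. The brighter one, 1368259_at, read 8.63, 8.12 and 8.72 in the controls, 7.92, 8.03 and 8.44 at week 6, 9.13, 8.55 and 8.70 at week 15, and 7.54, 7.31 and 7.33 at week 29. All 3 week 29 values lay below every other array. By this probe set Ptgs1 fell by 1.09 ± 0.19 at week 29 (log2, SE, n = 3 per group, limma adjusted p = 0.00954), a signal 2.14-fold lower. Beside it, 3 of 7 smooth muscle genes were called lower and 1 higher at week 29, with a list median of -0.49. Of all probe sets, 15.2% were called at week 29 and 7.44% were called lower. The part of smooth muscle in the Ptgs1 value was not tested. The dimmer one, 1381806_at, had a mean of 5.91 over the 12 arrays, just above the floor guide of 5.61. Whether it could show a 2.14-fold fall so near the floor was not tested. It read 5.95, 5.95 and 6.04 in the controls and 5.73, 6.09 and 5.93 at week 29, and these overlapped, with a difference of -0.07 and a 95% interval of -0.34 to 0.21. That interval does not reach the 95% interval of the brighter probe set, -1.51 to -0.68, so the fall of Ptgs1 rests on 1 of its 2 probe sets. At week 6 the dimmer probe set read 5.62, 5.57 and 5.76, all below the controls, a difference of -0.33 that was not called (adjusted p = 0.114). Its week 15 values of 6.38, 5.97 and 5.99 overlapped the controls. The week 29 call of the brighter probe set was lost without week 29 replicate 3 (-1.06, adjusted p = 0.0529) and when the GAPDH gap was a covariate (-0.78, adjusted p = 0.105). With the squamous score as a covariate it stood at -1.13 (adjusted p = 0.383).

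Ptgs2, the inducible cyclooxygenase, was near the floor on all 12 arrays. It read 3.02, 3.11 and 3.09 in the controls, 3.03, 2.99 and 2.75 at week 6, 3.17, 3.01 and 3.13 at week 15, and 3.07, 3.18 and 3.27 at week 29. All 12 arrays lay between 2.75 and 3.27, and each NMBA group overlapped the controls. The differences from control were -0.15, 0.03 and 0.10, with 95% intervals of -0.36 to 0.06, -0.19 to 0.24 and -0.11 to 0.31. At a signal near the floor such values have no order and do not show whether the RNA was absent.

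Ptges, the prostaglandin E synthase that works with the cyclooxygenases, was lower at week 29. Its brighter probe set, 1368014_at, read 9.20, 8.44 and 8.58 in the controls, 8.21, 7.89 and 8.04 at week 6, 8.96, 8.77 and 9.23 at week 15, and 8.33, 8.004 and 7.67 at week 29. The arrays of weeks 6 and 29 all lay below the lowest control, and those of week 15 overlapped the controls. Ptges fell by 0.74 ± 0.21 at week 29 (log2, SE, n = 3 per group, limma adjusted p = 0.0354), 1.67-fold lower, and stood at -0.69 ± 0.21 at week 6 (adjusted p = 0.06, not called). The dimmer probe set, 1368015_at, read 7.66, 6.76 and 7.15 in the controls, 6.85, 6.58 and 6.95 at week 6, 7.33, 7.76 and 7.90 at week 15, and 7.08, 6.70 and 6.64 at week 29, each group overlapping the controls. It had the same signs at weeks 6 and 29, -0.39 and -0.38, and was not called (adjusted p = 0.275 and 0.246). The week 29 call was lost without control replicate 1 (-0.51, adjusted p = 0.122), control replicate 3 (adjusted p = 0.0723), week 29 replicate 2 (0.0995) or week 29 replicate 3 (0.156). It was lost in a fit restricted to both groups (adjusted p = 0.0634) and with the muscle score (-0.59, adjusted p = 0.0695), the GAPDH gap (-0.54, adjusted p = 0.28) or the squamous score (0.05, adjusted p = 0.975) as a covariate. The week 6 difference was called without control replicate 2 (-0.84, adjusted p = 0.0449), week 15 replicate 3 (0.0497) or week 29 replicate 1 (0.0458).

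Hpgd, the dehydrogenase that inactivates prostaglandin E2, passed the test against control at no week, and its highest values were at week 15. The probe set 1376191_at read 7.82, 6.87 and 7.31 in the controls, 6.90, 6.97 and 7.69 at week 6, 7.93, 8.08 and 8.59 at week 15, and 7.78, 6.82 and 7.25 at week 29. The probe set 1387631_at read 6.76, 6.18 and 6.85, then 6.19, 5.98 and 6.996, then 7.03, 7.26 and 7.79, then 7.23, 6.37 and 6.70 in the same order. In both probe sets every week 15 array lay above every control, by 0.86 ± 0.30 (limma adjusted p = 0.0962) and 0.76 ± 0.30 (adjusted p = 0.134) on average, and neither was called.

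Alox12, a lipoxygenase known from platelets and squamous epithelium, was the 1 member called higher than control at any week. It read 6.54, 6.49 and 6.53 in the controls, 5.98, 6.07 and 6.11 at week 6, 6.83, 7.04 and 7.78 at week 15, and 6.64, 6.42 and 6.35 at week 29. Its week 6 samples lay below and its week 15 samples above every control, while week 29 overlapped the controls. Alox12 rose by 0.70 ± 0.19 at week 15 (log2, SE, n = 3 per group, limma adjusted p = 0.0408), 1.62-fold, and stood at -0.46 ± 0.19 at week 6 (adjusted p = 0.139, not called). The week 15 value was 0.42 without week 15 replicate 3, the array with the lowest muscle score, and was then not called (adjusted p = 0.0595). The call was lost as well without control replicate 1, 2 or 3 (adjusted p = 0.0825, 0.112 and 0.0965), week 6 replicate 1, 2 or 3 (0.0602, 0.0602 and 0.0534) or week 29 replicate 2 or 3 (0.0576 and 0.0545). A fit restricted to both groups did not call it (adjusted p = 0.142), nor did fits that held the muscle score (0.16, adjusted p = 0.721) or squamous score (0.42, adjusted p = 0.283). The week 6 difference was called without the week 15 arrays (adjusted p = 0.0145) and without week 15 replicate 3 alone (0.0204).

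Alox5 and Alox15, the lipoxygenases of leukocytes, gave no call in any comparison. Alox5, which makes leukotrienes, had a control mean of 6.24 ± 0.31 (SD, n = 3), a week 6 mean of 6.13 ± 0.08, a week 15 mean of 5.92 ± 0.19 and a week 29 mean of 6.04 ± 0.24, and the groups overlapped with the controls throughout. Alox15 had means of 5.34, 5.44, 5.52 and 5.41 with SDs from 0.02 to 0.12, all under the floor guide. The largest difference from control was -0.32 for Alox5 (95% interval -0.67 to 0.04) and 0.18 for Alox15 (-0.01 to 0.38), both at week 15.

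**Figure D3:**
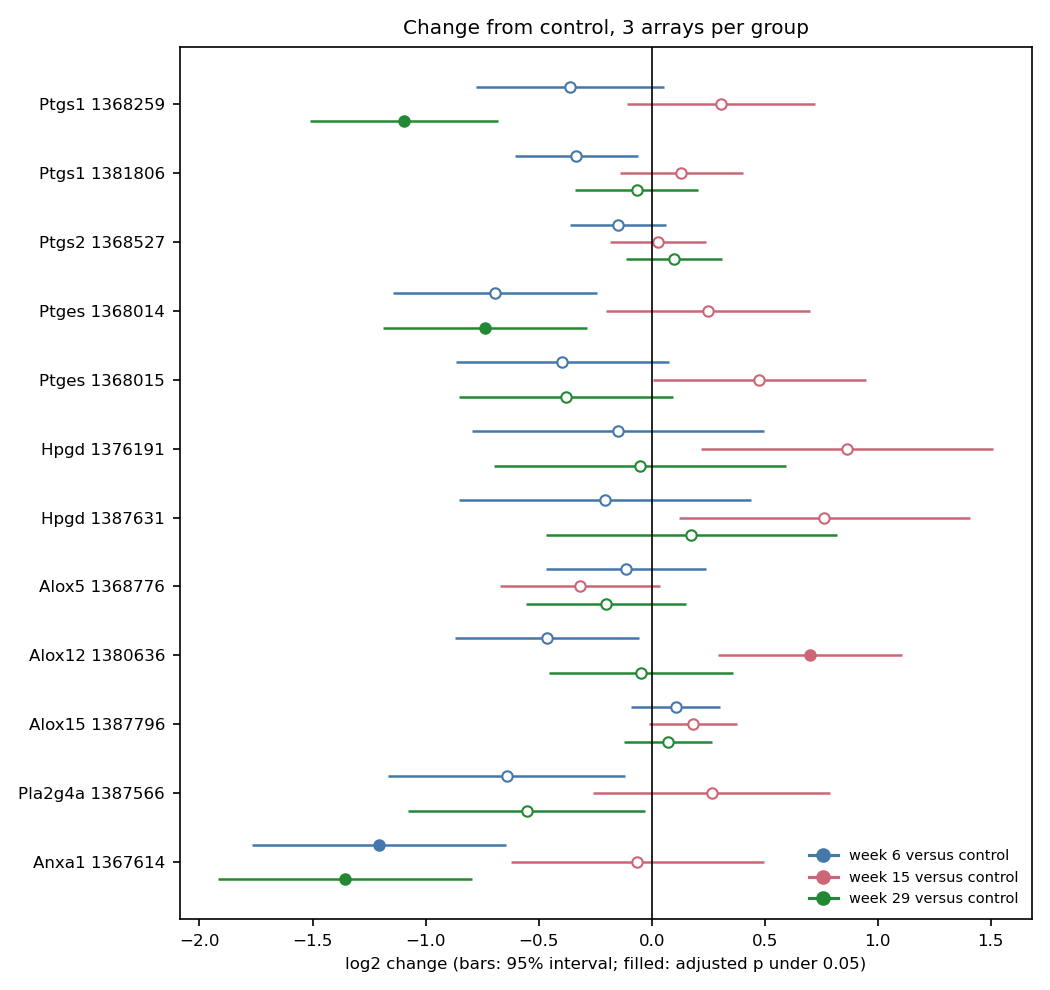
Log2 change from control of each member probe set at week 6, week 15 and week 29 (points), with 95% intervals as bars and 3 arrays per group. Filled points have a limma adjusted p under 0.05: Anxa1 at weeks 6 and 29, the brighter Ptgs1 and Ptges probe sets at week 29, and Alox12 at week 15.

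The second question was how the genes differed between NMBA weeks. From week 6 to week 15, 9 of the 12 member probe sets (6 genes) were higher and 0 were lower by limma (9 also at an unadjusted p under 0.05), where 37.8% of all probe sets were called and 20.3% were called higher. Alox12 showed the largest rise, 1.16 ± 0.19 (log2, SE, n = 3 per group, adjusted p = 0.000596), 2.24-fold. Anxa1 rose by 1.14 ± 0.26 (adjusted p = 0.00465), from a mean of 11.50 to 12.65. Hpgd rose by 1.01 and 0.97 in its 2 probe sets, Ptges by 0.94 and 0.87, Pla2g4a by 0.91, and Ptgs1 by 0.67 and 0.47. All 9 had arrays that did not overlap between the weeks, against 48.8% of all probe sets. The 3 probe sets that were not called were those of Ptgs2, Alox5 and Alox15.

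From week 15 to week 29, 7 member probe sets (6 genes) were lower and 0 were higher by limma (7 also at an unadjusted p under 0.05), where 35.4% of all probe sets were called and 18.3% were called lower. All 7 had arrays that did not overlap, against 44.6% of all probe sets. The brighter Ptgs1 probe set showed the largest fall, a log2 change of -1.40 ± 0.19 (limma adjusted p = 0.000205), 2.64-fold, and Anxa1 fell by 1.29 ± 0.26 (adjusted p = 0.00206). Ptges fell by 0.98 and 0.85, the Hpgd probe set 1376191_at by 0.92, Pla2g4a by 0.82 and Alox12 by 0.74. The second Hpgd probe set stood at -0.59 (adjusted p = 0.147) and the dimmer Ptgs1 probe set at -0.20 (adjusted p = 0.249). Beside both contrasts, the squamous score was highest and the muscle score lowest at week 15, and with either score as a covariate 0 of the 12 members were called in either contrast. Over all probe sets the calls then went from 11723 to 385 (muscle) and 0 (squamous) in the earlier contrast. In the later one they went from 10987 to 624 and 0, so these losses are not particular to the members. The GAPDH gap, too, was wider at week 15 (0.40) than at weeks 6 (0.11) and 29 (0.17), and with it as a covariate the member counts were 2 in place of 9 and 4 in place of 7. Over all probe sets they were then 4849 and 6915. Leaving out single arrays lowered the member count from 9 to 6 without week 6 replicate 1 or 2, through both Hpgd probe sets and the brighter Ptgs1 probe set. Hpgd was lost also without week 15 replicate 3 (0.82 and 0.75, adjusted p = 0.0713 and 0.086), and that Ptgs1 probe set without week 15 replicate 1 (0.50, adjusted p = 0.0725). In the later contrast it lowered the count from 7 to 5 without week 15 replicate 3 or week 29 replicate 2 or 3, each time through Hpgd and Pla2g4a.

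Weeks 29 and 6 were not told apart by the adjusted test. By limma 0 of the 12 members and 0 of all 31042 probe sets were called, with 3 members and 3005 probe sets at an unadjusted p under 0.05. The brighter Ptgs1 probe set was lower at week 29 than at week 6 by -0.73 (95% interval -1.15 to -0.32, adjusted p = 0.349), and its samples did not overlap, which held for 17.5% of all probe sets. Alox12 was at 0.42 (0.01 to 0.82, adjusted p = 0.508), and Ptgs2 at 0.25 near the floor. For Anxa1, with a difference of -0.15, the interval was -0.71 to 0.41, and for the brighter Ptges probe set it was -0.49 to 0.41. In order of level, Anxa1 and the brighter Ptges probe set therefore ran with control and week 15 together at the top and weeks 6 and 29 together below.

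**Figure D4:**
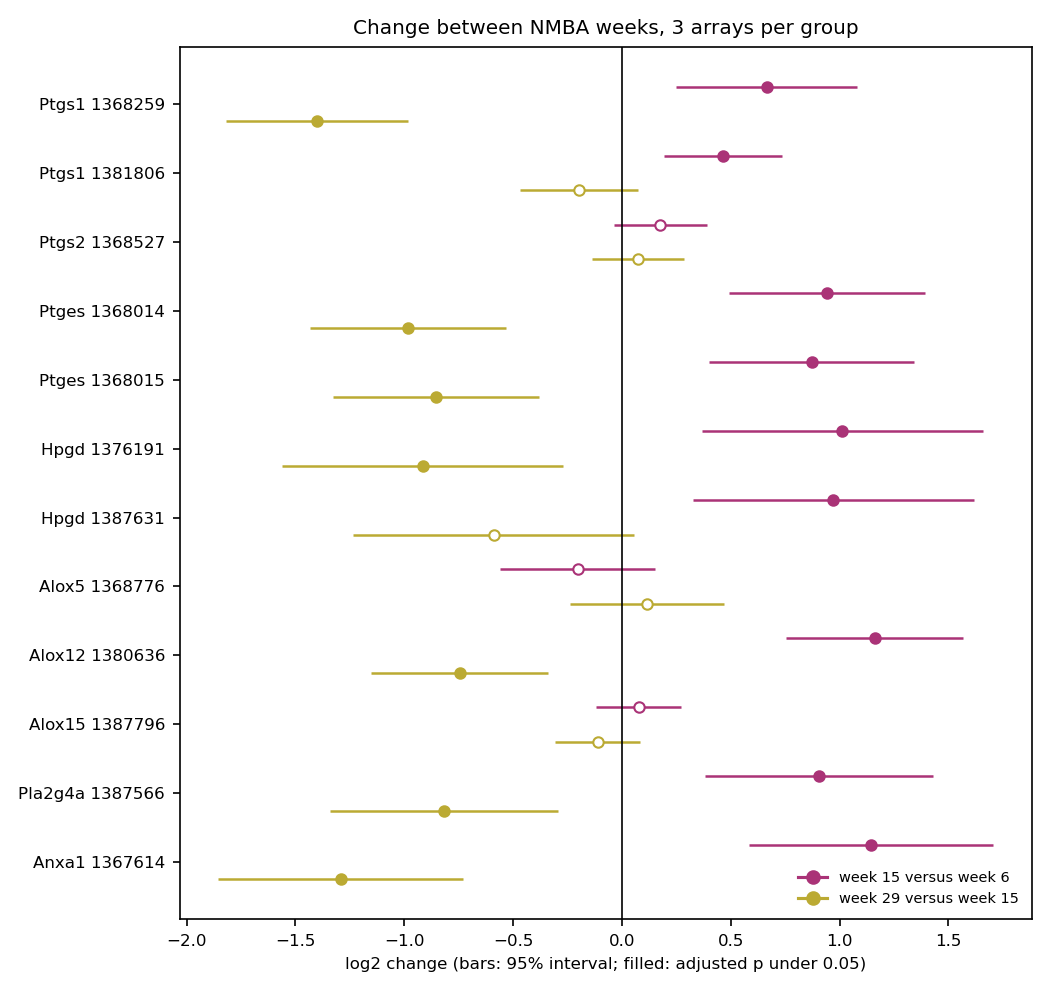
Log2 change of each member probe set from week 6 to week 15 and from week 15 to week 29 (points), with 95% intervals as bars and 3 arrays per group. Filled points have a limma adjusted p under 0.05: 9 probe sets lie to the right of 0 in the earlier contrast and 7 to the left in the later one.

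Further genes of the same pathways were taken from a list of 50, of which 42 were measured and each is represented by its brightest probe set. Against control, 3 were higher and 3 lower at week 6, 2 higher and 1 lower at week 15, and 5 higher and 7 lower at week 29, where 7.54%, 7.91% and 15.2% of all probe sets were called. Their median change was -0.08, 0.14 and -0.04, and that of all probe sets was -0.02, 0.06 and 0.04.

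Genes listed here as annexin A1 partners were called in the same groups as Anxa1. Of this group of 5, 3 were measured, Anxa2, S100a10 and S100a11, which encode a second annexin and 2 small S100 proteins that pair with annexins. All 3 were lower at week 6 and at week 29, where 2.44% and 7.44% of all probe sets were called lower, and 0 of 3 were called at week 15 by limma. S100a11, the known partner of annexin A1, fell by 0.78 ± 0.15 at week 6 and by 0.83 ± 0.15 at week 29 (limma adjusted p = 0.0228 and 0.011). Anxa2 fell by 0.70 and 0.79 and S100a10 by 0.55 and 0.68. In the same groups 5 and 11 of 14 squamous genes were called lower, and the part of squamous epithelium in the change of these 3 genes was not tested. Receptors Fpr1 and Fpr2 were not analysed here.

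Among 11 genes of prostanoid synthesis, transport and breakdown, the largest change was in Abcc4, an exporter of prostaglandins, which fell by 1.59 ± 0.19 at week 29 (limma adjusted p = 0.00232), from a mean of 8.41 to 6.81. Slco2a1, the prostaglandin uptake transporter that works upstream of Hpgd, fell by 0.55 at week 29. Ptgr2, a prostaglandin reductase, went the other way, rising by 0.57 at week 6 and 0.58 at week 29 and falling by 0.74 at week 15. Ptges2, a membrane-associated prostaglandin E synthase distinct from Ptges, rose by 0.42 at week 6 and 0.37 at week 29. The groups in which Ptgr2 and Ptges2 rose had the higher muscle scores, and the part of muscle in this was not tested.

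Of 11 measured phospholipases A2, 1 was called higher at week 6, 1 higher at week 15, and 1 higher and 2 lower at week 29, among them the cytosolic relatives of Pla2g4a, Pla2g4e and Pla2g4b. At these weeks 7.54%, 7.91% and 15.2% of all probe sets were called, and these shares stand beside every count in this paragraph. Pla2g4e rose by 1.01 ± 0.28 at week 15 and fell by 1.02 ± 0.28 at week 29 (limma adjusted p = 0.0483 and 0.0337), and Pla2g4b fell by 1.12 at week 29. Pla2g12a, a secreted form, rose by 0.80 at week 6 and 0.68 at week 29, the groups with the higher muscle scores, and the part of muscle in this was not tested. In the lipoxygenase and leukotriene path, 1 of 10 measured genes was higher at week 15, the leukotriene receptor Ltb4r by 0.42 ± 0.10 (adjusted p = 0.0258), and 1 was higher at week 29, the receptor Cysltr2 (0.47), whose week 29 mean of 4.34 is near the floor. Of 7 measured prostanoid receptors, 5 had a mean over the 12 arrays below the floor guide, and the 1 called, Ptger1 at week 29 (0.63), was among these, with a week 29 mean of 4.66.

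**Figure D5:**
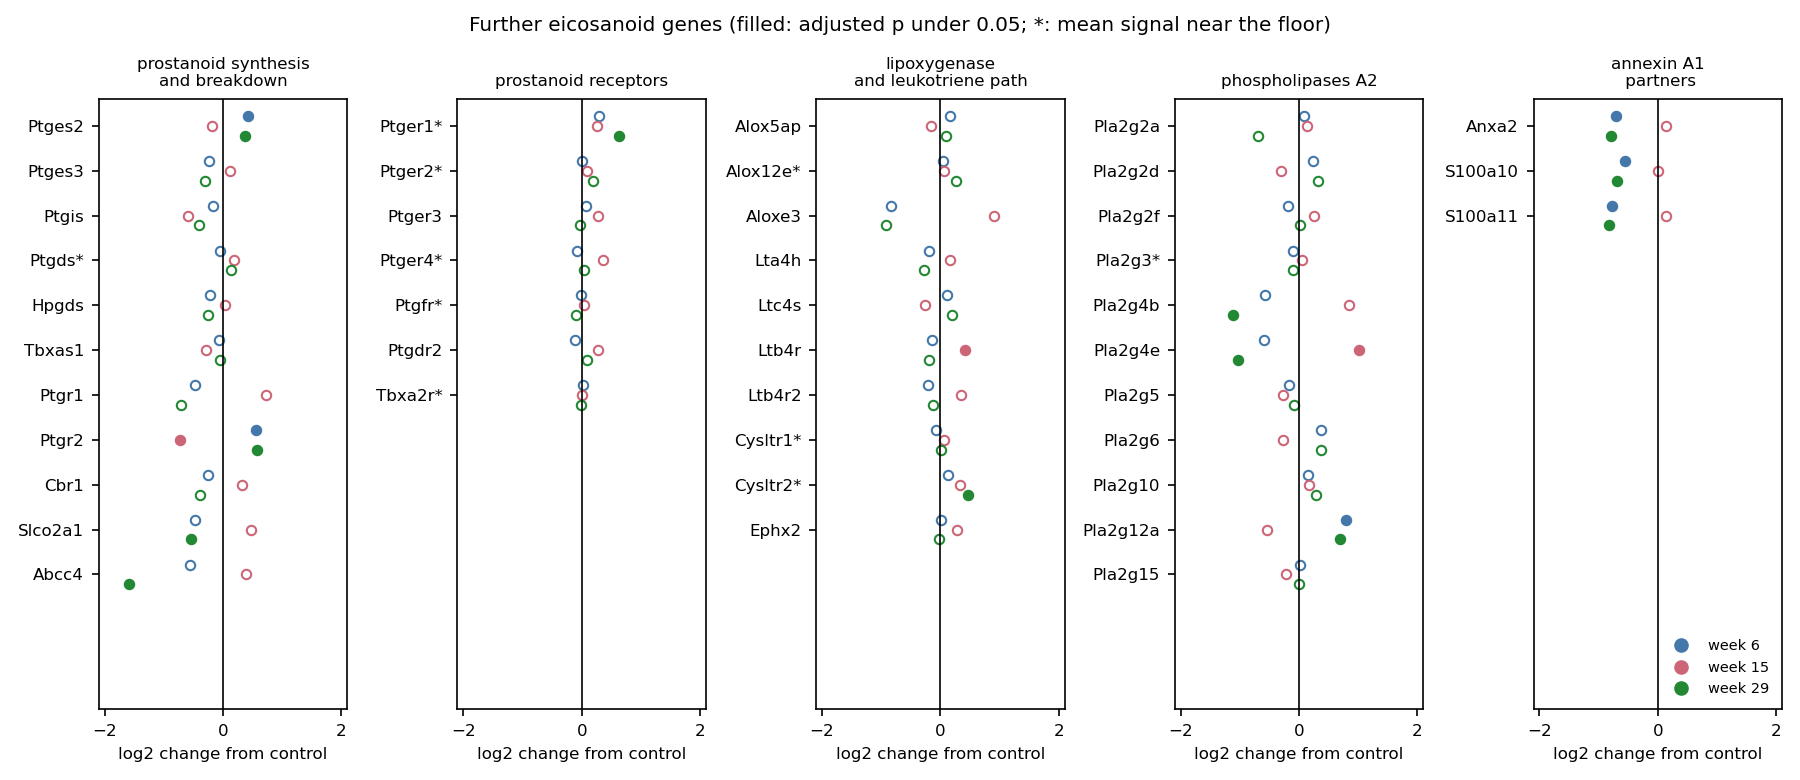
Log2 change from control of the 42 measured further genes at week 6, week 15 and week 29, in 5 panels by role, from means of 3 arrays per group. Filled points have a limma adjusted p under 0.05 and an asterisk marks genes whose mean over the 12 arrays is below the floor guide. Anxa2, S100a10 and S100a11 are lower at weeks 6 and 29, and Abcc4 at week 29 is the lowest point, at -1.59.

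The genes whose profile over the 12 arrays lay closest to each member were found by the root mean square difference of centred log2 signal. Closest to Anxa1 were Bspry (0.16), Hopx (0.18) and Mall (0.20), where Anxa1 itself varied by 0.70 on this measure. Closest to the brighter Ptges probe set were Erbb2 (0.09), Pls3 (0.11) and Rbm3 (0.11), and to the dimmer one Sqor (0.07), Erlin1 (0.09) and Prps1l3 (0.10). For the brighter Ptgs1 probe set they were Csrp1 (0.17), Abcg1 (0.22) and Mfhas1 (0.22), and for the dimmer one Inhbb, Nlgn1 and Cntln (0.09 each). For Pla2g4a they were Arl6ip1 (0.11), Naaa (0.12) and Mnd1 (0.12), and for Alox12 they were Ereg, Ugt2b34l1 and Stap2 (0.18 to 0.19). The nearest genes to the Hpgd probe sets were Dapl1, Gstm2 and Hspa1a for 1376191_at and Ass1, Ahr and Il1rl2 for 1387631_at, at 0.22 to 0.25. The 2 probe sets of Ptgs1, of Ptges and of Hpgd thus shared no gene in their lists. On this measure the dimmer Ptgs1 probe set itself varied by 0.21, against 0.57 for the brighter one and 0.49 and 0.44 for the Ptges probe sets. Equal distances are therefore not equally close matches.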

How the data were processed

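The deposited values are log2 signals per probe set and array that the authors produced in Affymetrix Expression Console, as the submitters' processing notes record. How that program summarized probes is not given in the sources used. The log2 scale was inferred from the range of the values, which were used as deposited. The number of arrays limits the precision. The table has 31099 probe sets. After removal of 57 array controls, 31042 entered limma 3.58.1 under R 4.3.3 (4 group means, 8 residual degrees of freedom, two-sided tests). The platform annotation names 1 symbol for 20826 of these, several for 436 and lists none for 9780. Further genes use their brightest probe set. The fit was tested on simulated data. Alternatives were other scalings, a filter on dim probe sets, covariates, a replicate block and leaving out each array. All members are named, and further genes where called against control, up to 4 per role and comparison. Members and lists were chosen with earlier results of these data known. Pairs of arrays shared 7 to 47 identical values, so none was a copy of another.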

Additional observations from a re-analysis of the deposited data

Results flagged for a closer look

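For 9 member probe sets the difference from control at week 15, taken with its sign, was higher than that at week 6 (limma, Benjamini-Hochberg adjusted p from 0.000596 to 0.0223). The control mean cancels in this test, so it is the contrast of weeks 15 and 6 given above and adds no further support. Of all probe sets, 37.8% were called in it and 20.3% were called higher. The log2 differences between the weeks were 1.16 for Alox12, 1.14 for Anxa1, 1.01 and 0.97 for the 2 Hpgd probe sets, 0.94 and 0.87 for the 2 Ptges probe sets, 0.91 for Pla2g4a, and 0.67 and 0.47 for the 2 Ptgs1 probe sets. For 7 the signed difference from control at week 29 was lower than that at week 15 (adjusted p from 0.000205 to 0.0304). That is likewise the contrast of weeks 29 and 15 given above, where 35.4% of all probe sets were called and 18.3% were called lower. The values were -1.40 for the brighter Ptgs1 probe set, -1.29 for Anxa1, -0.98 and -0.85 for Ptges, -0.92 for 1 Hpgd probe set, -0.82 for Pla2g4a and -0.74 for Alox12. Single outlying arrays within groups of 3 were not tested.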

How the results depend on the processing

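Subtracting array medians, quantile normalization, leaving out dim probe sets and an intensity trend in the prior variance changed no count of called members. Against 1 called at week 6, the count was 3 when only both groups were fitted, 2 without the week 15 arrays (an alternative chosen after seeing the data) and 2 with the replicate number as a block. It was 0 with the muscle score, the GAPDH value or the squamous score (chosen after seeing the data) as a covariate, and 0 at an adjusted p under 0.01. Against 1 at week 15, the count was 0 when only both groups were fitted, with the muscle or squamous score, and at 0.01. Against 3 at week 29, it was 2 when only both groups were fitted (4208 over all probe sets) and 2 with the muscle score. It was 1 with the GAPDH value, 1 at 0.01 and 0 with the squamous score. Against 9 between weeks 6 and 15, it was 0 with the muscle or squamous score, 2 with the GAPDH value and 4 at 0.01. Against 7 between weeks 15 and 29, it was 0, 0 and 4 with the muscle score, squamous score and GAPDH value, and 5 at 0.01 (7145 over all probe sets). Leaving out single arrays gave 0 to 3 at week 6, 0 to 1 at week 15, 0 to 4 at week 29, 6 to 9 and 5 to 7 in the contrasts between weeks, and 0 between weeks 29 and 6 in every setting. Among called values, signs turned only with the squamous score as a covariate: the brighter Ptges probe set at week 29 versus control (0.0467), Ptges (-0.27), Hpgd (-0.38 and -0.37), Pla2g4a (-0.36) and Anxa1 (-0.20) between weeks 6 and 15, and Ptges (0.14 and 0.54), Hpgd (0.79), Alox12 (0.17), Pla2g4a (0.73) and Anxa1 (0.35) between weeks 15 and 29. The squamous score differed between the groups, so it and the group cannot be told apart, and beyond that the cause was not tested. Over all probe sets the counts moved with them: from 2342 at week 6 to 4391 with both groups alone, 4028 without the week 15 arrays, 87, 8 and 0 with the muscle, GAPDH and squamous covariates and 1 to 3454 without single arrays. They moved from 2455 at week 15 to 135, 0 (muscle), 85 (squamous) and 881 to 3057, from 4705 at week 29 to 132 (GAPDH), 2898 (muscle), 0 (squamous) and 274 to 6120, from 11723 between weeks 6 and 15 to 385, 4849 and 0, and from 10987 between weeks 15 and 29 to 624, 6915 and 0 with muscle, GAPDH and squamous. Same-numbered arrays deviated together with r from -0.41 to 0.29. This gave no clear sign that the numbers pair the samples, but with so few arrays it cannot exclude a pairing. With the replicate block the brighter Ptges probe set was called at week 6 (limma adjusted p = 0.0391) and no other count changed.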
